A study of Mus musculus with 18 samples.

Results

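Bile acid synthesis is a chain of liver enzymes that turns cholesterol into conjugated bile acids, and 10 of its genes were followed here out of 18193 genes named on the array. They were Cyp7a1, Cyp7b1, Cyp8b1, Cyp39a1, Cyp27a1, Hsd3b7, Akr1d1, Amacr, Slc27a5 and Baat. They were chosen by name as enzymes of the pathway, and the brightest probe set of each, by its mean over the 18 arrays, was used. The 10 genes had 16 probe sets between them, and all 10 were bright enough to be tested among 12578 genes.

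The study asked how the fat in the diet alters hepatic gene expression when the liver lacks P450 reductase, the flavoprotein that hands electrons to the microsomal P450s. The mice were male and 12 weeks old. The knockout mice had the genotype Alb-Cre+/-/POR-lox+/+, in which the albumin promoter drives Cre in hepatocytes, and the control mice had the genotype Alb-Cre-/-/POR-lox+/+, so both genotypes carry the floxed alleles and the controls lack Cre. From the age of 4 weeks each mouse ate a synthetic diet for 8 weeks whose fat was a mixture of menhaden fish oil and ARASCO fungal oil (fish/fungal), canola oil or lard, and it was fasted for 4 h before the liver was taken. All 3 diets also held 0.025% cholesterol and 0.008% sodium cholate, a bile acid salt. The 6 combinations of genotype and diet had 3 arrays each, and each array carried RNA pooled from 3 livers, so that the pool is the replicate and 9 mice stand behind a group. Values are expression levels on a log2 scale, on which a difference of 1 is a doubling; the number of arrays limits their precision.

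Bile acids are made along several routes. In the classic route Cyp7a1, a microsomal P450, starts on cholesterol itself and is the rate-limiting enzyme. In the alternative routes a side chain hydroxylation comes first, often by the mitochondrial P450 Cyp27a1, and the microsomal P450s Cyp7b1 and Cyp39a1 then act on the oxysterols. Cyp8b1, a further microsomal P450, makes the precursor of cholic acid. The microsomal P450s take electrons from the reductase, whereas the mitochondrial P450 takes them from ferredoxin and ferredoxin reductase. The later steps are not P450 reactions: Hsd3b7 and Akr1d1 modify the sterol ring, Amacr inverts a side chain centre, Slc27a5 activates the acid as a coenzyme A ester and Baat joins it to taurine or glycine. In liver, bile acids bind the nuclear receptor FXR (Nr1h4), which induces the repressor SHP (Nr0b2) and the bile salt pump Abcb11. SHP lowers Cyp7a1 and Cyp8b1 through LRH-1 (Nr5a2) and HNF4A.

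The proximal promoters of a microsomal and of the mitochondrial P450 gene, and of a pair of genes in this feedback loop, are given so that the levels of these genes can be read beside their sequence. Promoter sequences were at hand for 4 of the 10 enzymes (Cyp8b1, Cyp27a1, Hsd3b7 and Akr1d1), from RefSeq on mouse build GRCm38.p6, each running from 250 bases before the gene's start to 50 bases after it. Both strands were searched for CAAAGTCCA (HNF4A), CAAGGNCA (LRH-1), the core promoter motif TATAAA and the FXR inverted repeat, a pair of half-sites that face each other around 1 base. Capitals mark the matches. The window of Cyp8b1, a microsomal P450, is chr9:121916256-121916555 on the minus strand, and that of Cyp27a1, the mitochondrial P450, is chr1:74713285-74713584 on the plus strand. The window of Nr0b2 is chr4:133553126-133553425 on the plus strand and that of Abcb11 is chr2:69342567-69342866 on the minus strand.
Cyp8b1: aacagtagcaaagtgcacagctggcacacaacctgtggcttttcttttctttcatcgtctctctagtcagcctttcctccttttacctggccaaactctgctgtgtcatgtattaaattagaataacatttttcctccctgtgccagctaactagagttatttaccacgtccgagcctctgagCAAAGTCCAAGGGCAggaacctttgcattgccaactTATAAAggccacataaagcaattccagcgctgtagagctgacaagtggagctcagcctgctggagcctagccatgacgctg
Cyp27a1: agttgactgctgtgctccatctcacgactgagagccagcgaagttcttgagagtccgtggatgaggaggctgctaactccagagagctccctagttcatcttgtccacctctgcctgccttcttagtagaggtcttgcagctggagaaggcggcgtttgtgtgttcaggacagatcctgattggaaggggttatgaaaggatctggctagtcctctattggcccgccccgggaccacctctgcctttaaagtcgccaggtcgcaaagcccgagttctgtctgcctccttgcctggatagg
Nr0b2: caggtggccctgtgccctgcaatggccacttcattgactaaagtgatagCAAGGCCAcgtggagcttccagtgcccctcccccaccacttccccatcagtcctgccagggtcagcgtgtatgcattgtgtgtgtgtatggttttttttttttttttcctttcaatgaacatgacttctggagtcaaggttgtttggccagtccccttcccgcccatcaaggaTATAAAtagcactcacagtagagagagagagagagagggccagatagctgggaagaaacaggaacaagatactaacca
Abcb11: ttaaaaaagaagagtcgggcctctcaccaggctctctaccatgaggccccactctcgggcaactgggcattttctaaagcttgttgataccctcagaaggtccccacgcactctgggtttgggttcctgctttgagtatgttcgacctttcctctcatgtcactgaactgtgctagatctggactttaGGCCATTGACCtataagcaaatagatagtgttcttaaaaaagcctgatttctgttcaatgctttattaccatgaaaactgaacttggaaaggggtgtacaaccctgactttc

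In Cyp8b1 the HNF4A match starts 67 bases before the gene's start and overlaps an LRH-1 match that starts 60 bases before it, with the core promoter motif 31 bases before it. Nr0b2 holds an LRH-1 match 201 bases before its start and the core promoter motif 28 bases before it, and Abcb11 an FXR match 62 bases before its start. The window of Nr0b2 holds no FXR match. Cyp27a1, Hsd3b7 and Akr1d1 hold 0 matches to these letters in their windows. The window of Slc51b, an exporter subunit gene described below, was also searched and holds 0 matches. Among all 32851 promoters of the same length, 0.475% hold the HNF4A letters, 6.71% the LRH-1 letters, 0.676% the FXR letters and 13.6% the core promoter letters. A match describes the letters and is not evidence of binding in these livers.

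Array medians lay between 5.229 and 5.286, and arrays of the same group correlated at 0.9876 to 0.9956 over the genes tested. The tissue was liver by its markers: all 8 tested hepatocyte genes (Alb, Apoa1, Ttr, Apob, Fga, Ahsg, Tat and Hnf4a) lay at or above the 98.4th percentile of the probe sets. Por, which the knockout deletes, is not analysed here, and no check of the genotype labels on it was made. In bulk liver, fewer cells of a type and less RNA per cell cannot be told apart. Genes were called at an adjusted p under 0.05 in limma.

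Averaged over the 3 diets, 2 of the 10 enzymes were lower in the knockout, and both are microsomal P450s of the alternative routes: Cyp7b1 and Cyp39a1. The other 8 did not pass. Over the whole array 575 of 12578 genes passed in this comparison (4.57%), 480 higher and 95 lower in the knockout (0.755% lower), and repeating the quantile normalization gave 401 higher and 163 lower. By class, 2 of the 4 microsomal P450s fell, with a median log2 difference over the class of -0.41 (range -0.917 to -0.013), against -0.005 over all genes tested. Cyp46a1 and Cyp2c70, P450s of a further list given below, did not pass, and no tested gene of that list lay below -0.042. The mitochondrial Cyp27a1 stood at 0.17 and did not pass, and 0 of the 5 non-P450 enzymes passed, with a median of -0.04. The classes were not tested against each other.

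Cyp7b1, the oxysterol 7alpha-hydroxylase of the alternative route, was lower in the knockout on every diet. On the fish/fungal diet it measured 12.70, 12.72 and 13.07 in knockout pools, against 13.52, 13.51 and 13.28 in control pools. On canola it measured 11.86, 12.37 and 12.81 in knockout pools, against 12.91, 12.89 and 13.20 in control pools. On lard it measured 12.83, 12.37 and 12.12 in knockout pools, against 12.96, 13.03 and 13.20 in control pools. On each diet every knockout pool lay below every control pool; the narrowest gaps were on canola and lard, where the highest knockout pool came close to the lowest control pool. Over the array, 21 genes (0.167%) were lower in the knockout without overlap on all 3 diets, and Cyp7b1 was the only one of the 10 enzymes among them. Averaged over the diets, Cyp7b1 fell by 0.63 ± 0.11 (SE; 95% interval -0.86 to -0.39), to 64.7% of the control level (limma, adjusted p = 0.00345).

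By diet the Cyp7b1 difference was -0.61 on fish/fungal, -0.65 on canola and -0.62 on lard, and the test of whether the knockout effect depended on diet gave F = 0.01 (unadjusted p = 0.99). A separate Cyp7b1 probe set of similar brightness gave -0.71 ± 0.12 (limma, adjusted p = 0.0028). A further, dim probe set averaged 3.52 and lay above the array median on 0 of the 18 arrays. Within a single diet no member passed after adjustment, Cyp7b1 included (adjusted p = 0.38 on fish/fungal, 0.465 on canola and 0.173 on lard). Fewer genes of the whole array were called there too: 0.294% on fish/fungal, 0.0636% on canola and 0.986% on lard.

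**Figure D1:**
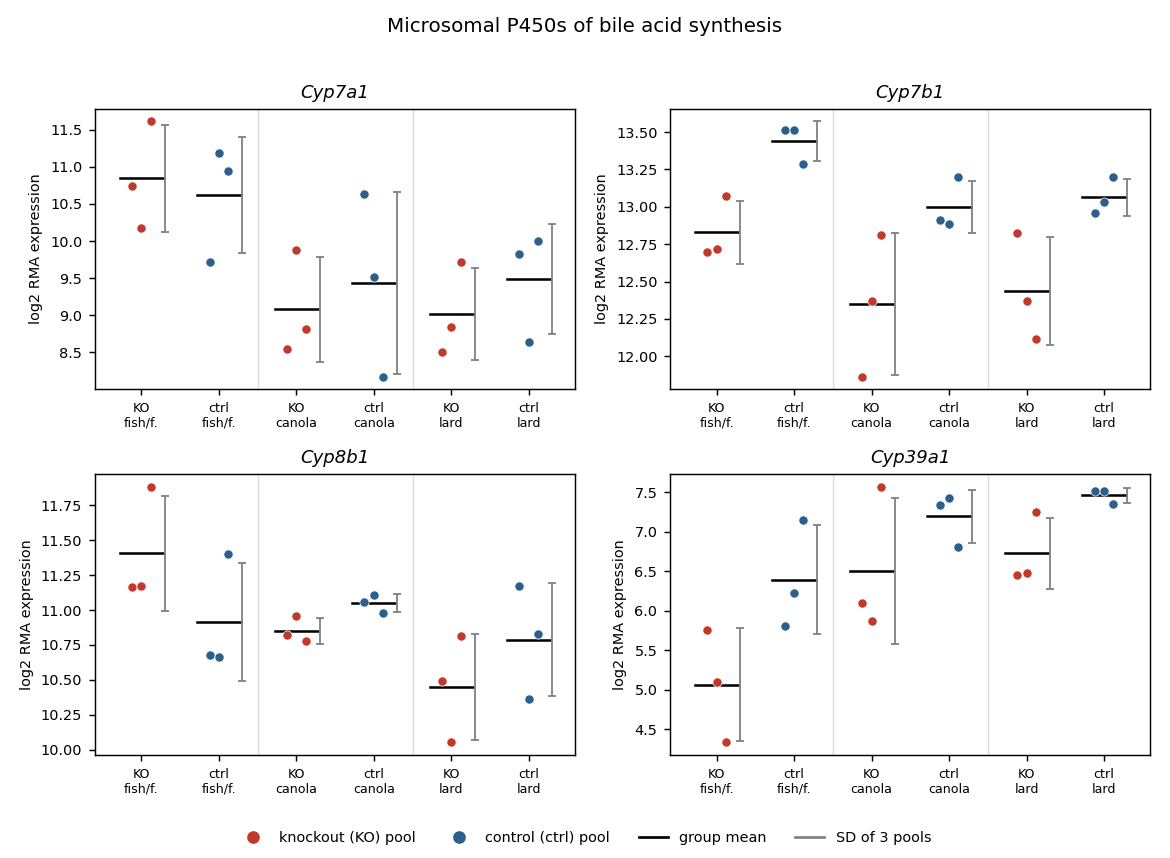
Log2 expression of the 4 microsomal P450 genes in each of the 18 pools, in a panel per gene with its own vertical scale; the horizontal axis gives genotype and diet, the bar is the group mean and the whisker the SD of 3 pools. Knockout pools of Cyp7b1 lie below control pools on each diet, and Cyp39a1 is lowest in the knockout on fish/fungal, with a mean of 5.07.

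Cyp39a1, the hydroxylase of 24-hydroxycholesterol, had lower group means in the knockout on all 3 diets, with more scatter. On the fish/fungal diet it measured 5.76, 5.10 and 4.34 in knockout pools, against 5.81, 6.23 and 7.15 in control pools. On canola it measured 6.09, 5.87 and 7.57 in knockout pools, against 7.34, 7.43 and 6.81 in control pools. On lard it measured 6.46, 6.48 and 7.25 in knockout pools, against 7.52, 7.51 and 7.36 in control pools. The genotypes did not overlap on fish/fungal or on lard, but on canola knockout pool 3 was above every control pool. Averaged over the diets Cyp39a1 fell by 0.92 ± 0.24 (95% interval -1.42 to -0.41), to 53% of the control level (limma, adjusted p = 0.035). The knockout fish/fungal mean of 5.07 lies below the array medians, so that group was measured at a dim level.

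The Cyp39a1 call rested on many arrays at once. It was lost in 12 of the 18 fits that lacked 1 array: those without a pool of control lard (each of the 3), without pool 1 or 2 of knockout lard, of control canola or of knockout canola, without pool 3 of control fish/fungal, or without pool 2 or 3 of knockout fish/fungal. The adjusted p then went up to 0.0821, reached without knockout canola pool 2, while the difference stayed between -1.09 and -0.79. By diet the difference was -1.33 on fish/fungal, -0.69 on canola and -0.74 on lard. The interaction test of these differences did not pass (F = 0.748, unadjusted p = 0.488).

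Cyp7a1 and Cyp8b1, the enzymes under SHP control, showed no genotype difference past the threshold. Cyp7a1 averaged 9.65 in the knockout and 9.85 in control, a difference of -0.20 ± 0.33 whose 95% interval ran from -0.89 to 0.49 (limma, adjusted p = 0.811). A dimmer Cyp7a1 probe set gave 0.13 ± 0.39. Cyp8b1 averaged 10.90 in the knockout and 10.92 in control, a difference of -0.01 ± 0.14 (-0.30 to 0.27; adjusted p = 0.977).

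The average for Cyp8b1 combines differences of opposite sign. On the fish/fungal diet Cyp8b1 measured 11.17, 11.17 and 11.88 in knockout pools, against 10.68, 10.66 and 11.40 in control pools. On canola it measured 10.82, 10.96 and 10.78 in knockout pools, against 11.05, 11.11 and 10.98 in control pools. On lard it measured 10.49, 10.05 and 10.81 in knockout pools, against 11.17, 10.36 and 10.83 in control pools. Pools overlapped between genotypes on fish/fungal and on lard and did not on canola, where the knockout was lower. The differences were 0.49 on fish/fungal, -0.20 on canola and -0.34 on lard. The interaction test for Cyp8b1 gave F = 3.55, an unadjusted p of 0.0514 and an adjusted p of 1, so the dependence on diet was not shown. None of the 10 enzymes, and 0% of the 12578 genes, passed the interaction test in limma; 0 enzymes and 242 genes had an unadjusted p under 0.05.

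Cyp27a1, the mitochondrial P450, was slightly higher in the knockout on average and did not pass (0.17 ± 0.07, 95% interval 0.01 to 0.33; unadjusted p = 0.0349, adjusted p = 0.232). On the fish/fungal diet it measured 11.99, 12.14 and 12.24 in knockout pools, against 11.77, 11.78 and 11.89 in control pools. On canola it measured 12.10, 11.98 and 12.02 in knockout pools, against 12.08, 11.40 and 11.95 in control pools. On lard it measured 12.16, 12.05 and 11.99 in knockout pools, against 11.95, 12.08 and 12.24 in control pools. Only on fish/fungal were the genotypes apart, with the knockout higher, and the second control canola pool was the lowest of all 18. Its other probe set was dim, at a mean of 2.76.

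The non-P450 enzymes differed little between genotypes. Hsd3b7, which oxidises the sterol ring after the first hydroxylation, stood at -0.07 ± 0.07 (95% interval lower bound -0.22). Akr1d1, the ring reductase, stood at 0.07 ± 0.14, and its dimmer probe set at 0.26 ± 0.11 (adjusted p = 0.235). Slc27a5 stood at -0.04 ± 0.05, Baat at -0.07 ± 0.08 and Amacr at -0.01 ± 0.05, and the adjusted p of the 5 enzymes ran from 0.691 to 0.973. Slc27a5 had the only separation of genotypes among them, on lard, where it measured 13.19, 13.29 and 13.25 in knockout pools, against 13.40, 13.41 and 13.34 in control pools. That difference was -0.14 ± 0.08 and did not pass (adjusted p = 0.61).

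Counting separations within a diet puts these in proportion. Pools of knockout and control did not overlap for 3 of the 10 enzymes on fish/fungal (Cyp7b1 and Cyp39a1 lower, Cyp27a1 higher), for 2 on canola (Cyp7b1 and Cyp8b1 lower) and for 3 on lard (Cyp7b1, Cyp39a1 and Slc27a5 lower). Of all genes tested, 10.9% were without overlap in either direction on fish/fungal, 11.3% on canola and 16.0% on lard.

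**Figure D2:**
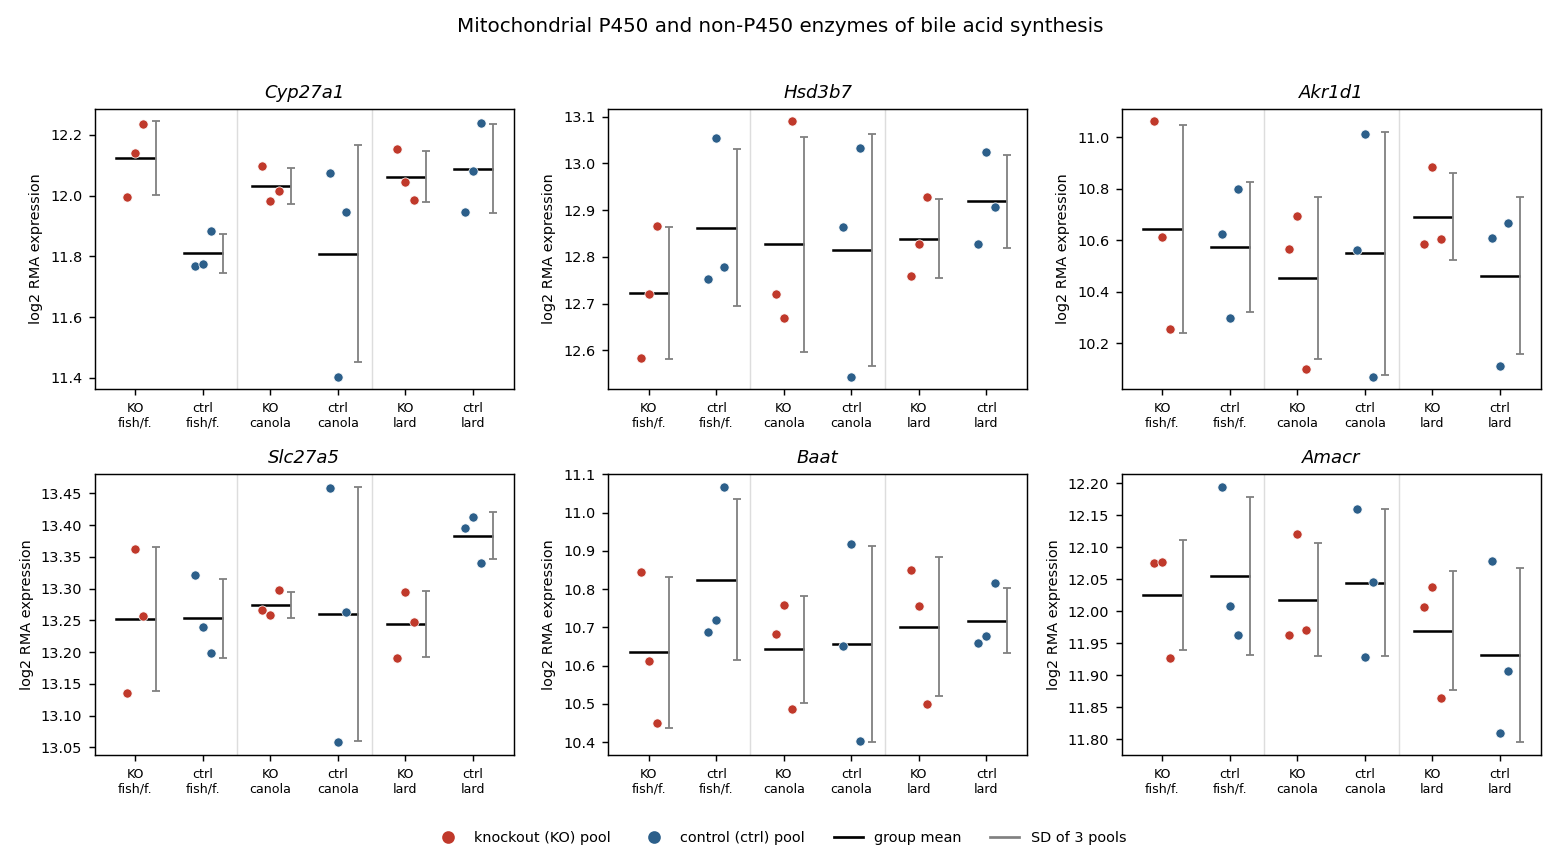
Log2 expression of Cyp27a1 and of the 5 non-P450 enzymes in each of the 18 pools, in a panel per gene with its own vertical scale; the horizontal axis gives genotype and diet, the bar is the group mean and the whisker the SD of 3 pools. The vertical scales are narrow, and group means of a gene span at most 0.32.

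**Figure D3:**
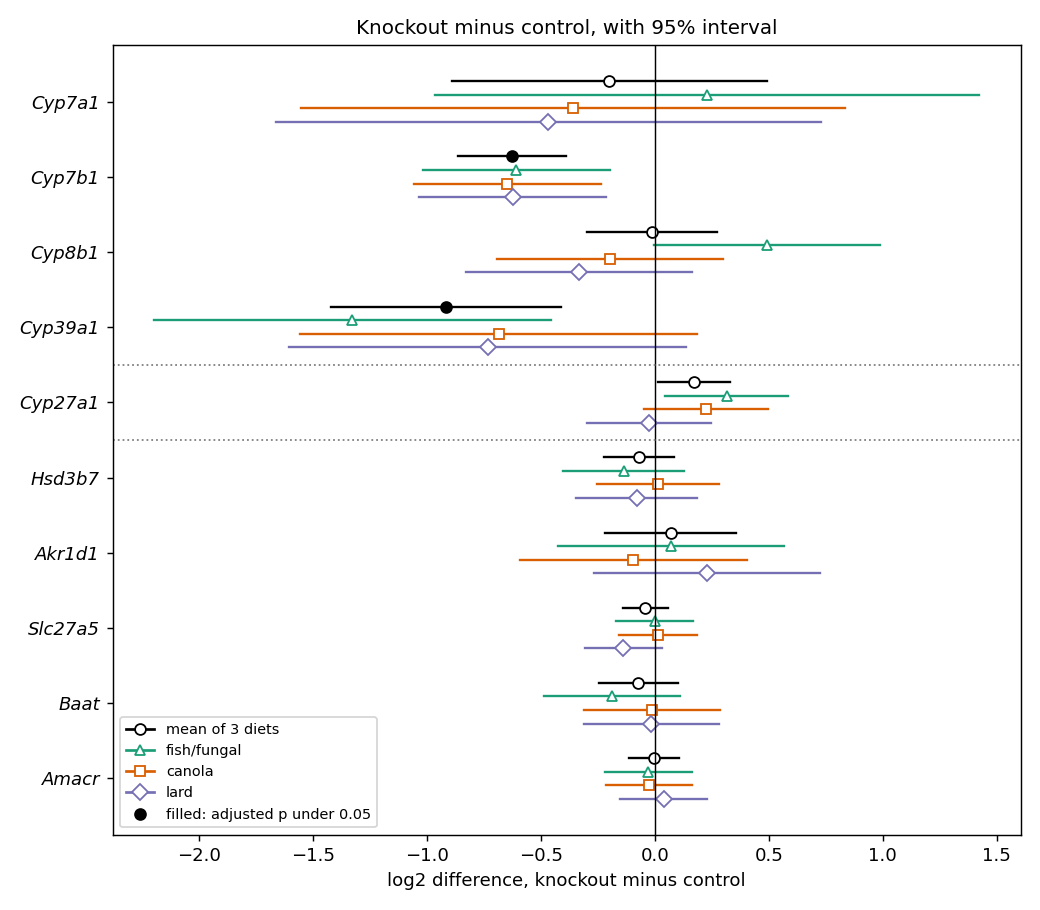
Knockout minus control on the log2 scale for the 10 enzymes, averaged over the 3 diets (black) and on each diet, with 95% intervals from limma; filled points have an adjusted p under 0.05. Dotted lines separate the microsomal P450s, the mitochondrial P450 and the non-P450 enzymes, and the 2 filled points are Cyp7b1 (-0.63) and Cyp39a1 (-0.92).

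Between fish/fungal and lard, averaged over both genotypes, Cyp39a1 fell and was the only 1 of the 10 enzymes past the threshold. Over the array 292 genes passed (2.32%), 224 of them lower on fish/fungal (1.78%). All 4 microsomal P450s had an unadjusted p under 0.05, and none of the other 6 enzymes did, beside 1648 of the 12578 genes. The median over the microsomal P450s was 0.46, but the class ran from -1.37 (Cyp39a1) to 1.48 (Cyp7a1), and its 3 positive differences did not pass. Over the non-P450 enzymes the median was 0.02, against -0.001 over all genes.

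Cyp39a1 averaged 5.73 on fish/fungal and 7.10 on lard, a difference of -1.37 ± 0.29 (95% interval -1.98 to -0.75), to 38.8% of the lard level (limma, adjusted p = 0.0156). The pools already given show no overlap between fish/fungal and lard in either genotype. Over the array 265 genes (2.11%) were lower on fish/fungal without overlap in both genotypes, and Cyp39a1 was the 1 enzyme among them. The difference was -1.66 ± 0.41 in the knockout and -1.07 ± 0.41 in control, neither past the threshold (limma, adjusted p = 0.103 and 0.471).

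Cyp7a1 had the largest positive difference of the 10 enzymes between fish/fungal and lard. On the fish/fungal diet it measured 10.75, 10.18 and 11.61 in knockout pools, against 9.72, 11.19 and 10.94 in control pools. On canola it measured 8.54, 9.88 and 8.82 in knockout pools, against 10.63, 9.51 and 8.18 in control pools. On lard it measured 8.50, 8.85 and 9.71 in knockout pools, against 9.82, 8.64 and 10.01 in control pools. In the knockout every fish/fungal pool was above every canola and lard pool, whereas in control a fish/fungal pool fell among the others. Averaged over genotypes Cyp7a1 was 1.48 ± 0.40 higher on fish/fungal than on lard (2.79-fold, 95% interval 0.63 to 2.32), which missed the threshold (unadjusted p = 0.00179, adjusted p = 0.0669). The dimmer probe set gave 1.35 ± 0.48 (adjusted p = 0.199).

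The Cyp7a1 result changed sides with the arrays and groups in the fit. It passed when the fit held the fish/fungal and lard groups alone (adjusted p = 0.033). It also passed without pool 1 or pool 3 of control canola (0.0413 and 0.0335), without pool 1 of control fish/fungal (0.0383) or without pool 2 of knockout fish/fungal (0.0449), and went up to 0.194 without control lard pool 2. Within genotypes the difference was 1.83 ± 0.57 in the knockout (3.55-fold, adjusted p = 0.256) and 1.13 ± 0.57 in control (adjusted p = 0.654).

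Cyp8b1 and Cyp7b1 had positive differences between fish/fungal and lard that did not pass. For Cyp8b1 it was 0.54 ± 0.17 (1.46-fold, adjusted p = 0.119). Within genotypes it was 0.96 ± 0.24 in the knockout (adjusted p = 0.097), where no pools overlapped, and 0.13 ± 0.24 in control (adjusted p = 0.949), where they did. For Cyp7b1 it was 0.38 ± 0.14 (1.3-fold, adjusted p = 0.205), with 0.39 in the knockout and 0.38 in control. Knockout and diet differences of Cyp7b1 thus had opposite signs, and its order of group means ran from control fish/fungal (13.44), which was apart from control lard (13.06) and control canola (13.00), down to knockout fish/fungal (12.83), knockout lard (12.44) and knockout canola (12.35), whose neighbours overlapped.

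The remaining 6 enzymes lay between -0.11 (Cyp27a1) and 0.09 (Amacr), with adjusted p from 0.61 to 0.961. In control alone Cyp27a1 and Slc27a5 were lower on fish/fungal than on lard without overlap of pools, at -0.28 ± 0.13 (adjusted p = 0.597) and -0.13 ± 0.08 (adjusted p = 0.77). Genes whose pools separated by diet within a single genotype were not counted over the array. The separations of Cyp27a1 and Slc27a5, and those of Cyp7a1, Cyp7b1 and Cyp8b1 above, therefore have no share of all genes beside them. No enzyme passed for fish/fungal against lard within a genotype, where 0.461% of all genes passed in the knockout and 0.716% in control.

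The comparison of fish/fungal with canola shares its fish/fungal pools with that against lard, so its own values are given. Cyp7a1 was at 1.47 ± 0.40 (adjusted p = 0.101), Cyp7b1 at 0.46 ± 0.14 (0.154), Cyp8b1 at 0.21 ± 0.17 (0.791) and Cyp39a1 at -1.12 ± 0.29 (0.0849). None of the 10 enzymes passed in limma, beside 124 of all genes (0.986%), and 3 of the 10 had an unadjusted p under 0.05, beside 1218 of the 12578 genes. Single arrays each decided a call here: Cyp7a1 passed without control canola pool 1 (1.77, adjusted p = 0.0369), Cyp7b1 without knockout canola pool 3 (0.58, 0.0412) and Cyp39a1 without control fish/fungal pool 3 (-1.31, 0.0454). Within genotypes 0 enzymes passed, beside 0.159% of all genes in the knockout and 0.262% in control.

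No enzyme passed between canola and lard. The differences ran from -0.24 (Cyp39a1) to 0.33 (Cyp8b1), and Cyp7a1 stood at 0.01 ± 0.40, an interval of -0.84 to 0.85 that leaves room for changes in either direction. Over the array 0% of genes passed in limma averaged over genotypes, in the knockout or in control, although 852, 607 and 579 genes had an unadjusted p under 0.05 in these comparisons. Averaged over genotypes 0 of the 10 enzymes had an unadjusted p under 0.05.

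**Figure D4:**
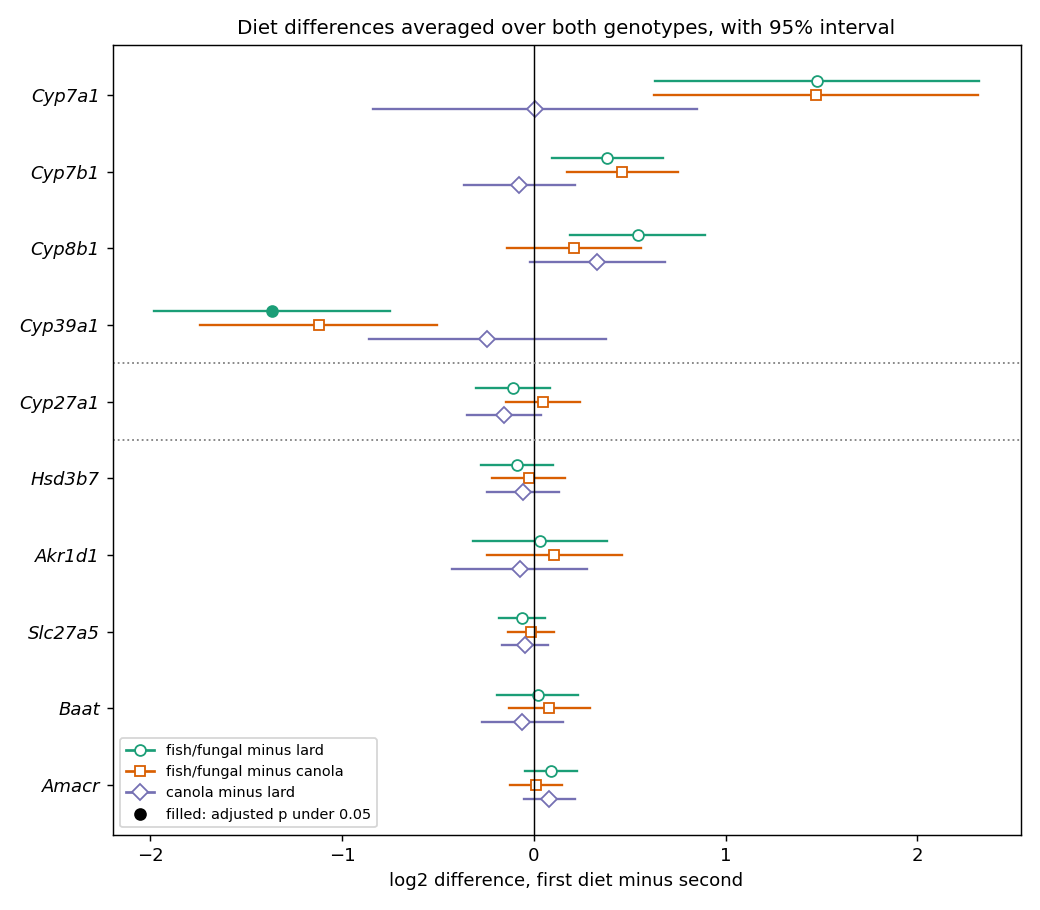
Diet differences on the log2 scale for the 10 enzymes, averaged over both genotypes, with 95% intervals from limma: fish/fungal minus lard, fish/fungal minus canola, and canola minus lard; filled points have an adjusted p under 0.05. Cyp39a1 for fish/fungal minus lard (-1.37) is the only filled point, and Cyp7a1 lies at 1.48 and 1.47 for the comparisons with fish/fungal.

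The enzymes differed widely in how much pools of the same group varied. The SD within groups was 0.83 for Cyp7a1, at the 99.9th percentile of the genes tested, and 0.60 for Cyp39a1, at the 99.5th. It was 0.33 for Cyp8b1 and for Akr1d1, 0.28 for Cyp7b1, 0.19 for Baat, 0.17 for Cyp27a1 and for Hsd3b7, 0.11 for Amacr and 0.10 for Slc27a5, with a median of 0.15 over all genes. The 4 microsomal P450s therefore had wider intervals than most genes, and each pool already averages 3 mice. Their group means also spanned the most, 2.398 for Cyp39a1, 1.83 for Cyp7a1, 1.09 for Cyp7b1 and 0.96 for Cyp8b1, whereas those of the other 6 spanned 0.12 to 0.32.

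The order of the 6 groups differed between the P450s. Cyp7a1 was highest in knockout fish/fungal (10.85) and control fish/fungal (10.62), followed by control lard (9.49), control canola (9.44), knockout canola (9.08) and knockout lard (9.02), and all neighbours overlapped. Cyp8b1 was highest in knockout fish/fungal (11.41), which was apart from control canola (11.05), and control fish/fungal (10.91), knockout canola (10.85), control lard (10.79) and knockout lard (10.45) followed with overlap between neighbours. Cyp39a1 was highest in control lard (7.46) and control canola (7.20), then knockout lard (6.73), knockout canola (6.51) and control fish/fungal (6.40), and only knockout fish/fungal (5.07) was apart from its neighbour.

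Cyp7a1 and Cyp8b1 share their repressor, and their pools were compared after removing each group's mean. Over 18 pools the deviations of Cyp7a1 and Cyp8b1 gave Pearson's r = 0.544 (exact permutation within groups, two-sided p = 0.0299) and Spearman's rho = 0.548 (exact p = 0.0365). Adjusted over the 3 pairs examined these became 0.0897 and 0.109, so the relation did not pass; without the 2 pools farthest from the median of Cyp7a1, r was 0.65. Nr0b2, the gene of SHP, gave r = -0.405 with Cyp8b1 (exact p = 0.121, adjusted p = 0.182; rho = -0.385, exact p = 0.134) and r = -0.245 with Cyp7a1 (exact p = 0.382; rho = -0.354, exact p = 0.249). Without the 2 pools farthest in Nr0b2, these were -0.417 and -0.016. Leaving out control fish/fungal pool 2 or pool 3 brought 1 of the 3 pairs past the threshold. Which of the 3 pairs passed is not given here, so the count cannot be assigned to a single relation.

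As a description over the 18 arrays, the genes whose levels most resembled Cyp7b1 were Adh6-ps1 (r = 0.892), Ces4a (0.859) and Spin1 (0.838), with knockout differences of -0.58, -0.52 and -0.28. Those nearest Cyp7a1 were Tk1 (0.841), Fhad1 (0.829) and Gpcpd1 (0.808), and the difference of Gpcpd1 between fish/fungal and lard was 1.01. Esrra (0.829), Gde1 (0.809) and 1700008O03Rik (0.768) were nearest Cyp8b1, and Mtfp1 (0.895), Ociad2 (0.858) and Fuom (0.853) nearest Cyp39a1. The arrays share groups, so these coefficients mix genotype, diet and pool, and genes chosen this way share the differences of the enzyme they were chosen for.

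Other genes around the pathway were read from 4 lists. Of 8 further bile acid enzymes and carriers 7 were tested and 0 passed for genotype in limma (1 had an unadjusted p under 0.05). Nearest were Cyp46a1, the cholesterol 24-hydroxylase (0.26 ± 0.11, adjusted p = 0.226), and Hsd17b4, of peroxisomal side chain oxidation (0.12 ± 0.07, 0.442). Between fish/fungal and lard 0 passed (2 had an unadjusted p under 0.05), with Acox2, the branched-chain oxidase of the side chain, at 0.18 ± 0.06 (0.198) and Scp2 at -0.10 ± 0.04 (0.233). Against canola 0 passed (3 had an unadjusted p under 0.05), with Acox2 at 0.19 ± 0.06 (0.205) and Cyp2c70, the muricholic acid P450 of mouse, at 0.32 ± 0.12 (0.288). Ch25h was too dim to test. Of all genes 4.57% passed for genotype, 2.32% for fish/fungal against lard and 0.986% for fish/fungal against canola.

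Of 15 regulators 0 passed in limma in any averaged comparison; 3 had an unadjusted p under 0.05 for genotype, 5 for fish/fungal against lard, 0 for fish/fungal against canola and 3 for canola against lard. Of the 12578 genes, 2262, 1648, 1218 and 852 had one in these comparisons. For genotype Mafg stood at 0.22 ± 0.09 (adjusted p = 0.206) and Nr1i2, the receptor PXR, at 0.26 ± 0.12 (0.269), while Nr1h4 was at -0.09 ± 0.08. On fish/fungal relative to lard Nr1i3, the receptor CAR, stood at 0.49 ± 0.13 (0.0706) and Nr0b2 at -0.39 ± 0.11 (0.0858), and Nr1h4 at 0.30 ± 0.10 (0.144). Nr0b2 measured 9.47, 9.93 and 9.34 in knockout fish/fungal pools, against 9.99, 10.21 and 9.996 in knockout lard pools. In control it measured 9.83, 9.54 and 9.61 in fish/fungal pools, against 9.88, 9.93 and 10.06 in lard pools. In each genotype every fish/fungal pool of Nr0b2 lay below every lard pool, as for 265 genes of the array (2.11%). The group means of Cyp7a1 differed in the opposite direction, a difference that did not pass either (limma, adjusted p = 0.0669). A link between these diet differences was not tested.

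Among electron carriers 4 of 5 were measured and 0 passed for genotype in limma (2 had an unadjusted p under 0.05). Of all genes 4.57% passed, and 2262 of 12578 had an unadjusted p under 0.05. Cyb5a, cytochrome b5, stood at 0.11 ± 0.03 (adjusted p = 0.0577), Pgrmc1 at 0.07 ± 0.03 (0.272), and Fdx1, the ferredoxin that serves the mitochondrial P450, at -0.003 ± 0.06 (0.988). On fish/fungal 1 of the 4 was lower than on lard: Cyb5r3, the cytochrome b5 reductase, fell by 0.58 ± 0.11 (limma, adjusted p = 0.00666). Of all genes 1.78% were called lower in that comparison. A probe set of Cyb5r3 that is less prone to cross-hybridization gave 0.11 (adjusted p = 0.61), so its direction depends on the probe set.

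Among 12 bile acid transporters 11 were tested, and 3 were higher in the knockout with 0 lower (class median 0.24, against -0.005 over all genes). Over the array 480 of 12578 genes were called higher in the knockout and 95 lower. The 3 transporters were Slco1a4, a basolateral uptake carrier (1.63 ± 0.19, adjusted p = 0.000106), Abcc3, a basolateral exporter (1.18 ± 0.16, 0.000436), and Abcb11, the canalicular bile salt pump (0.34 ± 0.08, 0.0287). On fish/fungal 2 fell relative to lard, Slc51b by 0.41 ± 0.10 (0.0308) and Abcb11 by 0.42 ± 0.10 (0.0366), with a median of -0.15 over the list. Of all genes 1.78% were called lower on fish/fungal than on lard, and 0.986% were called in either direction against canola. Slc51b is a subunit of a basolateral bile acid exporter. Against canola 0 passed (1 had an unadjusted p under 0.05), the nearest being Slc10a1, the main uptake carrier, at -0.26 ± 0.06 (0.0549).

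Abcb11 measured 11.58, 11.86 and 11.89 in knockout fish/fungal pools, against 12.31, 12.18 and 12.03 in knockout lard pools. In control it measured 11.51, 11.35 and 11.40 in fish/fungal pools, against 11.57, 12.22 and 11.82 in lard pools. Slc51b measured 6.12, 5.79 and 5.72 in knockout fish/fungal pools, against 6.89, 6.49 and 6.28 in knockout lard pools. In control Slc51b measured 5.96, 5.70 and 5.95 in fish/fungal pools, against 5.91, 5.99 and 6.11 in lard pools. Abcb11 was without overlap in both genotypes, as were 2.11% of all genes in that direction, and Slc51b in the knockout alone. These calls were lost when single arrays were left out: 8 of the 18 such fits lost the genotype call of Abcb11 (highest adjusted p 0.0628, with knockout fish/fungal pool 2 removed), 7 its diet call (highest 0.105, with knockout lard pool 1 removed) and 6 the diet call of Slc51b (highest 0.0932, with knockout fish/fungal pool 3 removed). With only the groups compared in the fit, the diet calls of Abcb11 (adjusted p = 0.0517) and Slc51b (0.0836) were lost too, and that of Slc51b also with centred arrays (0.063).

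**Figure D5:**
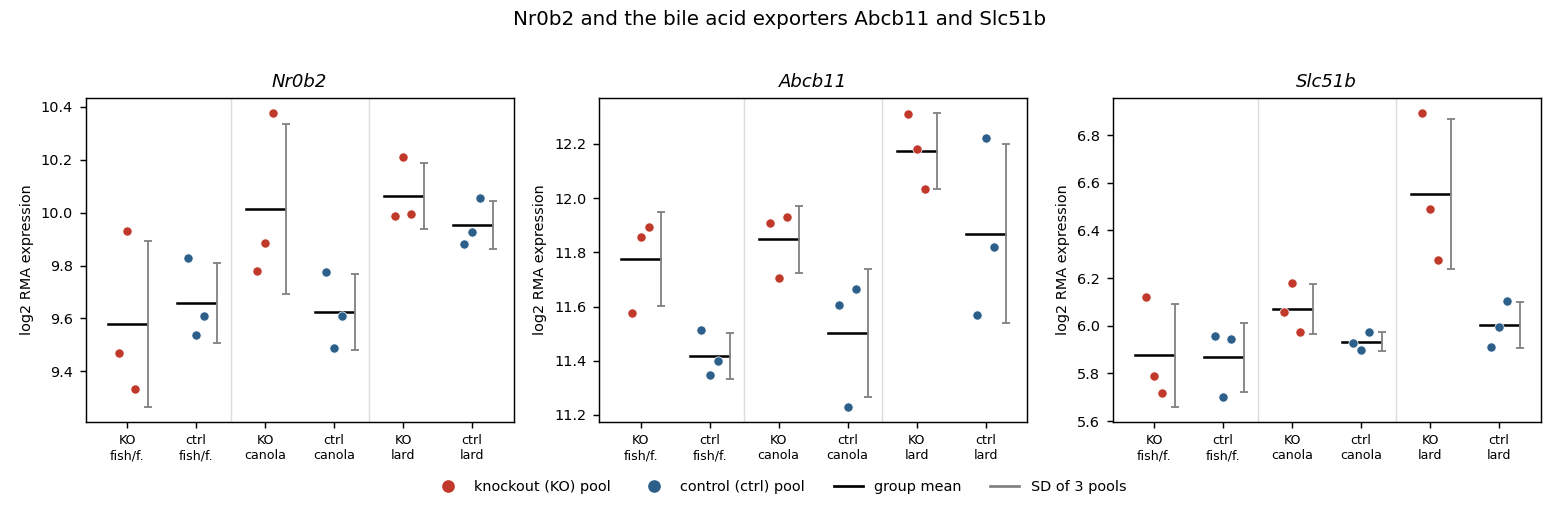
Log2 expression of Nr0b2 (the repressor SHP), Abcb11 (the bile salt pump) and Slc51b (an exporter subunit) in each of the 18 pools, in a panel per gene with its own vertical scale; the horizontal axis gives genotype and diet, the bar is the group mean and the whisker the SD of 3 pools. In each genotype the fish/fungal pools of Nr0b2 and Abcb11 lie below the lard pools, with means of 9.58 against 10.06 for Nr0b2 in the knockout.

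Some markers of liver cell types were called for genotype, and their part in the enzyme results was not tested. Over the array 480 of 12578 genes were called higher in the knockout and 95 lower, and 2262 had an unadjusted p under 0.05. Of 10 Kupffer cell and macrophage markers 4 were higher in the knockout (Cd68 0.52, Lyz2 0.54, C1qa 0.40 and C1qb 0.40), with mean levels of the list per pool of 9.43 to 10.22 in knockout and 9.61 to 9.67 in control on fish/fungal, 9.25 to 9.69 in knockout and 8.96 to 9.52 in control on canola, and 9.87 to 9.98 in knockout and 9.11 to 9.54 in control on lard. The call of C1qa was lost in 13 of the 18 fits that lacked 1 array and that of C1qb in 11, with adjusted p of at most 0.088 and 0.0898, both with knockout canola pool 2 removed. Repeated quantile normalization ended both calls (0.0581 for C1qa and 0.0594 for C1qb), and C1qb was also lost with centred arrays (0.0501) and with the mean of all its probe sets (0.0832). Of 8 stellate cell markers 1 was higher (Timp1 0.36). Of 8 pericentral hepatocyte markers 3 were higher (Cyp1a2 0.63, Rhbg 0.70 and Oat 0.42), with mean levels per pool of 10.20 to 10.66 in knockout and 10.03 to 10.22 in control on fish/fungal, 10.33 to 10.43 in knockout and 9.87 to 10.32 in control on canola, and 10.35 to 10.61 in knockout and 10.07 to 10.19 in control on lard. None of the 8 tested hepatocyte, 6 periportal, 8 sinusoidal endothelial, 3 cholangiocyte and 6 lymphocyte markers passed for genotype in limma; 0, 2, 2, 0 and 1 of them had an unadjusted p under 0.05. For genotype 7 of the 8 hepatocyte markers had negative differences (median -0.06). Mean levels of the hepatocyte list per pool were 13.32 to 13.50 in knockout and 13.47 to 13.52 in control on fish/fungal, and 13.45 to 13.55 in knockout and 13.36 to 13.58 in control on canola. On lard they were 13.48 to 13.58 in knockout and 13.60 to 13.68 in control, where the genotypes did not overlap. The stellate list was apart on lard too, at 8.12 to 8.61 in knockout and 8.02 to 8.04 in control. So were the sinusoidal endothelial (8.67 to 8.81 against 8.52 to 8.59) and lymphocyte lists (6.19 to 6.32 against 6.03 to 6.14). These lists were higher in the knockout, as were the macrophage and pericentral lists, which were apart on lard as well. The periportal and cholangiocyte lists overlapped there.

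Relative to lard, 1 periportal marker, Hsd17b6, was higher on fish/fungal (0.56, adjusted p = 0.0072), and 0.26 (0.0632) with the mean of all its probe sets. Relative to canola, 1 macrophage marker, Lyz2, was higher on fish/fungal (0.65, adjusted p = 0.0367), a call lost in 9 of the 18 fits that lacked 1 array (highest adjusted p 0.105, with knockout canola pool 3 removed) and with only the groups compared in the fit (0.0854). All 10 macrophage markers had positive differences between fish/fungal and canola (median 0.33, 9 with an unadjusted p under 0.05), and all 10 had negative ones between canola and lard (median -0.27, 6 with an unadjusted p under 0.05), comparisons that share the canola pools. Of the 12578 genes, 1218 and 852 had an unadjusted p under 0.05 in these comparisons. Called in limma were 2.32% of all genes for fish/fungal against lard and 0.986% against canola. No other marker of these cell types passed in a diet comparison averaged over genotypes, and their part in the diet results was not tested.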

How the data were processed

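RNA of mouse liver was hybridised to Affymetrix Mouse Genome 430 2.0 arrays, 18 in all, 3 pools of 3 mice in each of 6 groups. The authors deposited RMA values, per the submitters' processing notes (no version stated). The range of the deposited values, 2.409 to 14.89, is that of a log2 scale, which no label names, and levels of different enzymes were not compared with each other. RMA background correction and quantile normalization compress differences of dim genes and set all arrays to 1 distribution.

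Of 45101 probe sets, 34945 carry 1 gene symbol, 932 several and 9160 are not listed in the annotation; 34741 were matched to RefSeq names. Each gene was read from its probe set with the highest mean. Genes above the array median on at least 3 of 18 arrays were tested (12578 genes). limma 3.58.1 in R 4.3.3 fitted 6 group means over all 18 arrays, with eBayes and a trend, and p-values were adjusted over all tested genes by Benjamini and Hochberg (threshold 0.05). Nothing in the labels ties pools across groups. Each limma p-value sets a difference of group means against the spread between pools, not between mice.

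The enzymes and the other gene lists were chosen with earlier results of these data known. All 10 enzymes are named, and of other lists the genes called and those nearest the threshold, with the feedback genes. The computation was tested on simulated data. Alternatives were another filter, normalization, probe set, fit or group selection, a replicate block, array weights and each array left out in turn. Por is not analysed here. The labels give the diets 7% fat in the sample records and 6% in the series text.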

Additional observations from a re-analysis of the deposited data

How the results depend on the processing

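Of 29 alternative settings, 10 planned settings, 18 that left out 1 array each and 1 chosen after seeing the data (the second-brightest probe set), Cyp7b1 kept its genotype call in all (adjusted p 0.000458 to 0.0106 when 1 array was left out) and Cyp39a1 its call for fish/fungal against lard (0.00405 to 0.0476). The number of enzymes called changed as follows, and the cause was not tested. For genotype averaged over diets it was 1 to 2 when 1 array was left out, against 2 with all arrays, and 12 of the 18 arrays gave 1. For genotype on canola it was 1 with array weights (Cyp7b1, adjusted p = 0.0334), against 0. For fish/fungal against lard averaged over genotypes it was 2 with only the groups compared (Cyp7a1 added) and 1 to 2 when 1 array was left out, against 1. For fish/fungal against canola averaged over genotypes it was 0 to 1, and for fish/fungal against lard in the knockout 0 to 1 (Cyp39a1 without knockout canola pool 3, adjusted p = 0.036), against 0 each. Of the 3 relations across pools 0 to 1 passed when 1 array was left out, against 0. Cyb5r3 for fish/fungal against lard turned to 0.11 when probe sets prone to cross-hybridization were left out. With the replicate number as a block, 2 enzymes were called for genotype (Cyp7b1, adjusted p = 0.00521; Cyp39a1, 0.0447) and 1 for fish/fungal against lard (Cyp39a1, 0.0241), as without it, and the block changed no other enzyme's call. Among the other genes named, the block ended the genotype calls of C1qa (0.0569) and C1qb (0.0575), the fish/fungal against lard call of Abcb11 (0.0591) and the fish/fungal against canola call of Lyz2 (0.0533). A pairing of pools by number was neither shown nor excluded: deviations of same-numbered pools correlated at -0.397 to 0.458. For 8 of 18 arrays the mean correlation was highest with the pools of their own number in the other groups. The number of arrays, 3 a group, limits the precision.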
